A study of Mus musculus with 6 samples.

Results

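Serpins, alpha-macroglobulins and the inter-alpha-trypsin inhibitor chains are families that include many protease inhibitors secreted into plasma by hepatocytes. Some serpins act inside cells or do not inhibit proteases. Their genes were taken from the RNA-seq table by symbol: every gene named Serpin with a clade letter from a to i and a number, together with Mug1, Mug2, A2m, Pzp, Itih1 to Itih4 and Ambp, provided that at least 10 reads were counted over the 6 libraries. Of 72 such genes among 56691 in the table, 45 met the read minimum, 27 stayed below it, and 20 of those 27 had no read at all.

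The libraries were made from the liver of 3 KPF and 3 WPF dams. KPF dams were hChrebp KO mice, which carried Chrebp flox/flox and 1 copy of Alb-Cre, a Cre recombinase driven by the albumin promoter and so active in hepatocytes, while other liver cells keep the gene. WPF dams were labelled WT in the sample records and described in the study's methods as Chrebp flox/flox without Cre. All dams were pregnant females, had been mated with Chrebp flox/flox males, and received HFrD, a diet of 70% fructose with 10 kcal% fat, from Day 0 until sacrifice on Day 17. ChREBP, encoded by Mlxipl, is a transcription factor that responds to carbohydrate. The age of the dams was not given in the sources used here, and no group on another diet was analysed here, so the values describe 1 diet and late pregnancy only.

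A serpin presents a reactive loop as bait. When the target protease cuts the loop, the serpin folds over and traps the enzyme in a covalent complex. Alpha-macroglobulins instead close around a protease that cuts their bait region. Several serpins have lost inhibition and act as hormone carriers, as a collagen chaperone or as signalling proteins, and the inter-alpha-trypsin inhibitor chains are coupled to hyaluronan.

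The 6 libraries held between 10694496 and 14496630 counted reads, and the 45 members took between 1.95% and 3.58% of them. The 9 hepatocyte markers examined, albumin among them, were expressed in every library, summed to between 84011 and 107503 CPM in KPF and between 105198 and 175108 CPM in WPF, and none was called by the rule given below. The 3 placental markers were at 0 throughout. Replicates differed beyond counting noise in every pair (chi-square per gene of 39.6 or more). Mlxipl was counted at 179, 700 and 849 CPM (reads scaled to library totals with TMM factors) in KPF replicates 1, 2 and 3, against 961, 1260 and 879 CPM for WPF replicates 2, 3 and 4. KPF replicate 3 came close to WPF replicate 4, and the value is for the whole gene and not for the deleted exon, so it does not test the deletion. WPF replicate 4 stood apart in its group: 13 genes known as ChREBP targets summed to 1488 CPM there, against 12835 and 16498 CPM in WPF replicates 2 and 3 and 937 to 1159 CPM in KPF. KPF replicate 2 stood apart in genes of striated muscle: 10 such genes, listed after their values were seen, summed to 3821 CPM there and to between 5.27 and 12.3 CPM in the other 5 libraries. KPF replicate 1 was the highest library for Saa1, Saa2 and Lcn2, as given below beside Serpina3n. Values without each of these libraries are given where they bear on a result. Because whole liver was sequenced, fewer cells of a type and less RNA per cell cannot be told apart.

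Levels were compared between genes as FPKM, which scales the count by gene length and library total. The most abundant member was Serpina6, which encodes corticosteroid-binding globulin, with 3887 ± 2430 FPKM (mean ± SD, n = 6 libraries), the 16th highest of all genes in the table. Serpina1b, 1c, 1a and 1e, which encode forms of alpha-1-antitrypsin, followed with 1902, 1056, 1011 and 904 FPKM. Of the 100 genes with the highest mean FPKM, 10 were members. At the other end, 15 members had a mean under 1 FPKM, among them all 7 clade B serpins, which act inside cells, and A2m, Serpine2, Serpini1, Serpina9, Serpina3f, Serpina3h and Serpina3i. These 15 were not part of the test, which was run on the 10866 genes with a mean of at least 1 FPKM, and 30 members passed that minimum.

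**Figure D1:**
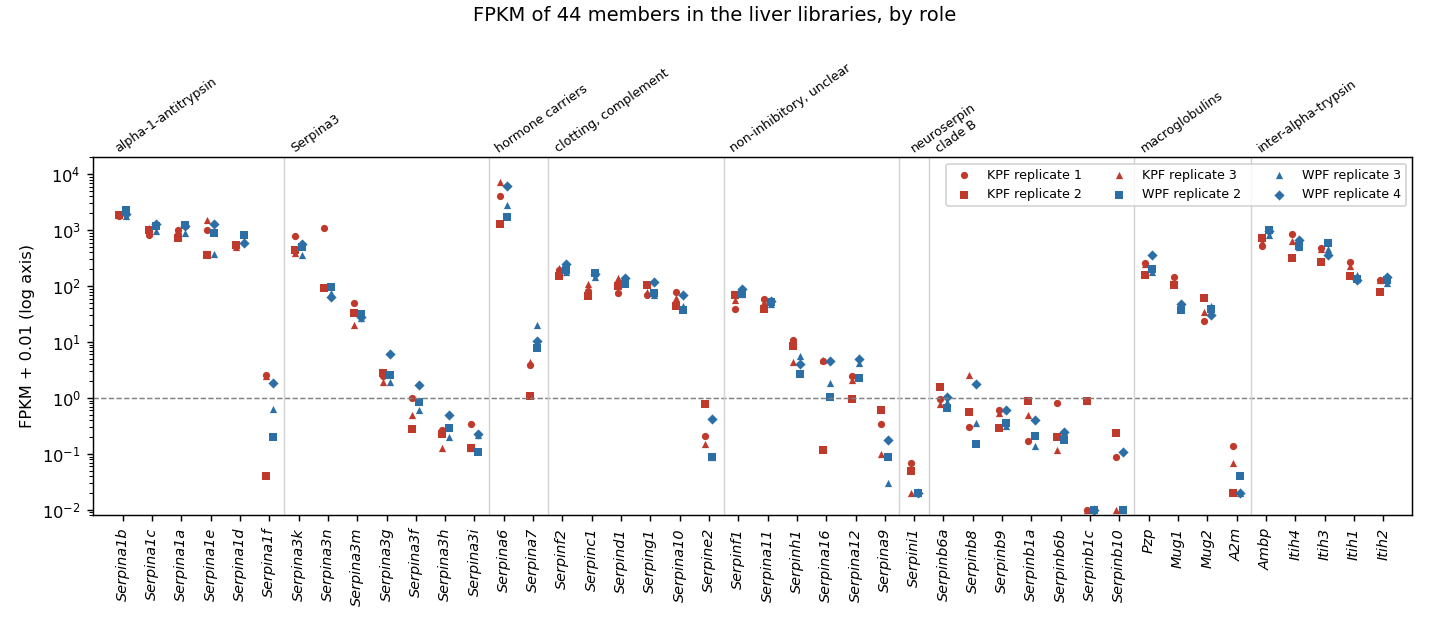
FPKM of 44 members (FPKM + 0.01 on a log axis) in each of the 6 libraries, ordered by role and by mean level; red symbols are KPF and blue symbols WPF, the symbol shape gives the replicate, and the dashed line marks the minimum of 1 FPKM for testing. Serpina6, Serpina1a to Serpina1e and Ambp lie at the top, and the clade B genes lie near or under the line.

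Several members are near-identical copies, which limits how well reads can be assigned to single genes. The coding sequences of Serpina1a to Serpina1e were 91.4% to 96.7% identical, those of Mug1 and Mug2 93.3%, and those of Serpina3k and Serpina3m 91.1%, whereas Serpina3n shared 82.7% with Serpina3k and 85.2% with Serpina3m. In the GENCODE M21 transcripts, 35 of 45 members held no stretch of 150 bases (1 read length) that also occurred in another gene. The share of such stretches was 50.5% for Serpina1c, 40.7% for Serpina1a, 23.3% for Serpina1d, 16.4% for Serpina1b and 7.57% for Serpina1e. It was 39.6% for Serpina11, where the partner was the readthrough gene model Gm28577, 19.4% for Mug2, 2.26% for Mug1, and under 1% for Serpina3k and Serpina3m. For Serpina3n, Serpina6, Serpina7, Serpinc1, Serpinh1 and Itih1 it was 0.

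The reactive loop is where a serpin meets its protease. The coding bases for the reactive loop, from its hinge to the conserved motif behind it, are shown for the 5 alpha-1-antitrypsin genes because these are bases by which their reads can be told apart. They were read from GRCm38 with GENCODE M21, each lies in 1 coding exon on the minus strand of chromosome 12, and capitals mark bases that differ from Serpina1b (6, 8, 9 and 11 of 81 bases in Serpina1a, 1c, 1d and 1e). The stretches lie at chr12:103853750-103853830 (Serpina1a), chr12:103728317-103728397 (Serpina1b), chr12:103895087-103895167 (Serpina1c), chr12:103763755-103763835 (Serpina1d) and chr12:103947093-103947173 (Serpina1e).
Serpina1b: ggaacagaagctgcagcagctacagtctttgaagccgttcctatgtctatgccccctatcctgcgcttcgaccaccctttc
Serpina1a: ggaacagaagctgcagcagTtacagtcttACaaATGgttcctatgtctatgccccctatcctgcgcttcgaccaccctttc
Serpina1c: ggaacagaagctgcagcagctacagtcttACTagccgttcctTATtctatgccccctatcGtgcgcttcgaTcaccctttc
Serpina1d: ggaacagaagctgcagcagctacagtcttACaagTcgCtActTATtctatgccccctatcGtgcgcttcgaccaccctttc
Serpina1e: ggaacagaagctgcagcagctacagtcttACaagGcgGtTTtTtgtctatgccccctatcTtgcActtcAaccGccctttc

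The same stretch is shown for 3 Serpina3 genes on the plus strand of chromosome 12, since Serpina3n behaved unlike its neighbours. Capitals mark bases that differ from Serpina3k or have no counterpart in it. Serpina3m had 16 substituted and 6 unmatched positions and Serpina3n 19 and 10. They lie at chr12:104345269-104345352 (Serpina3k), chr12:104393769-104393858 (Serpina3m) and chr12:104413448-104413537 (Serpina3n) in GRCm38.
Serpina3k: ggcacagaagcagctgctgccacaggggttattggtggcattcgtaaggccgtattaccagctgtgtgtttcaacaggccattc
Serpina3m: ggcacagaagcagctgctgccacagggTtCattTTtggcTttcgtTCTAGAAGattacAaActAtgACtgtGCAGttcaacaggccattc
Serpina3n: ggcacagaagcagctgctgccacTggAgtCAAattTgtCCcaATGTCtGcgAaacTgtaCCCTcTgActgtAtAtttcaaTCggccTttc

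For the murinoglobulins the stretch shown is the one, among gap-free stretches of 60 coding bases, in which Mug1 and Mug2 were least alike: 60 bases of which 41 were identical. It lies at chr6:121873620-121873679 in Mug1 and chr6:122063560-122063619 in Mug2 (GRCm38, plus strand), and capitals mark the bases that differ.
Mug1: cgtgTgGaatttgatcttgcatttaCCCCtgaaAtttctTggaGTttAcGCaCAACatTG
Mug2: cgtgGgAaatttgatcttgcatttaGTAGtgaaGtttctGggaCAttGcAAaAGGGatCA

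KPF and WPF livers were compared to ask which inhibitor genes differ when hepatocytes lack ChREBP under HFrD in pregnancy. Of the members, 4 were called higher in KPF (Mug1, Serpina3n, Itih1 and Serpinh1) and 2 were called lower (Serpina7 and Serpinc1), a call being an unadjusted p under 0.05 with at least a 1.5-fold change in edgeR's quasi-likelihood test. These are 13.3% and 6.67% of the 30 members tested, where 5.83% of all genes tested were called higher and 3.98% lower. The other 24 tested members were not called. Without KPF replicate 1, and likewise without WPF replicate 4, Mug1 was the 1 member called higher. The members called lower were Serpina7 and Serpina12 without KPF replicate 1, and Serpina7 and Serpinc1 without WPF replicate 4. Without KPF replicate 2, 5 were called higher, with Serpina1f as the fifth, and Serpina7 was the 1 member called lower. Over all genes tested, 634 were called higher and 433 lower, and 371 and 729 with library totals in place of TMM factors. After Benjamini-Hochberg adjustment over the 10866 genes, edgeR gave an adjusted p under 0.05 to none of the members and to none of the other genes, the smallest being 0.397, while 6 members and 1177 genes had an unadjusted p under 0.05 and DESeq2 gave 2 members (Mug1 and Serpina7) an adjusted p under 0.05. The median log2 fold change was 0.034 for the members and 0.016 for all genes tested, with 16 members above 0 and 14 below. KPF and WPF did not overlap in 5 of 30 members (Mug1, Serpina7, Serpinc1, Serpina12 and Ambp), against 15.7% of all genes. With 3 dams in each group an exact two-sided permutation test cannot give a p below 0.1. The replicates are separate dams, and the p values rest on the spread between them.

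**Figure D2:**
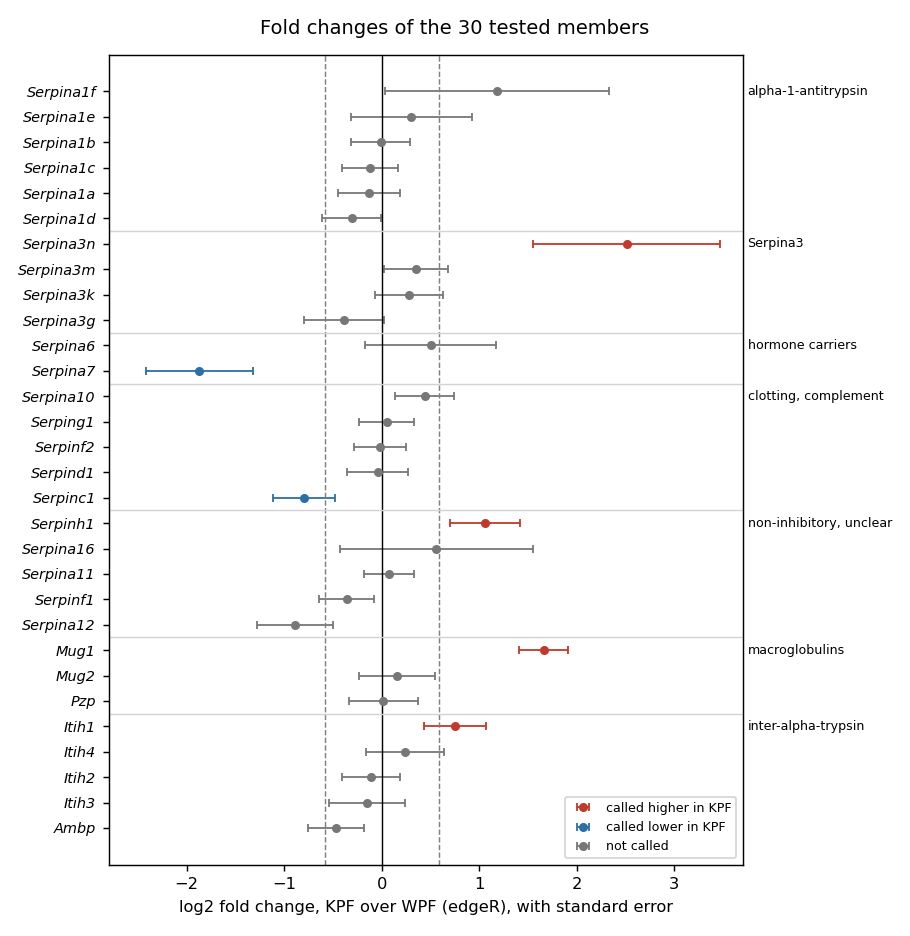
Log2 fold change of KPF over WPF with its standard error (edgeR) for the 30 tested members, grouped by role; red and blue points were called higher and lower in KPF, grey points were not called, and dashed lines mark 1.5-fold. Mug1 has a short error bar far from 0, Serpina3n a long one, and most other members lie within the dashed lines.

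Mug1, which encodes murinoglobulin 1, a monomeric alpha-macroglobulin of mouse plasma, showed the clearest difference among the members. Mug1 (ENSMUSG00000059908, chromosome 6 from 121815500 to 121866016 on the plus strand, in the GRCm39 coordinates of the table) was counted at 843, 611 and 691 CPM in KPF replicates 1, 2 and 3 against 239.9, 209 and 231 CPM for WPF replicates 2, 3 and 4. The groups did not overlap, and WPF replicate 4 lay with the rest of its group. The KPF mean was 715 ± 118 CPM and the WPF mean 227 ± 16.1 CPM (SD, n = 3 each), a 3.15-fold difference, for a log2 fold change of 1.66 (standard error 0.25, p = 0.000219, adjusted p = 0.397 in edgeR's test, exact permutation p = 0.1). The call held in each of 15 alternative fits, with log2 fold changes between 1.5 and 1.75 and, without WPF replicate 4, 1.66.

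Its neighbour Mug2, the second murinoglobulin gene, did not follow. Mug2 stood at 110.2, 282 and 178 CPM in KPF and 203, 188 and 119.5 CPM in WPF, so that KPF replicate 1 was the lowest and KPF replicate 2 the highest library. Its log2 fold change of 0.16 (standard error 0.39) did not pass (adjusted p = 0.894 in edgeR's test), and its sign changed without KPF replicate 2 or WPF replicate 4. Mug1 took 88.4%, 68.4% and 79.5% of the reads of both genes in KPF, and 54.2%, 52.7% and 65.9% in WPF. KPF and WPF did not overlap in this share, whose means were 78.8% ± 10.03 and 57.6% ± 7.27 (SD, n = 3 each).

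Counted reads summed over near-identical genes do not depend on how they were divided between them. Any shared reads left uncounted would be missing from such sums. Mug1 and Mug2 together came to 953, 893 and 869 CPM in KPF and 443, 397 and 351 CPM in WPF, 2.28-fold between the means without overlap. The pseudogene Mug-ps1, which shared 14.5% of its read-length stretches with Mug2 and other genes, was counted at 425, 593 and 469 CPM in KPF and 567, 745 and 329 CPM in WPF. With it included, a sum chosen after the data were seen, the 3 genes came to between 1339 and 1486 CPM in KPF and between 680.1 and 1142 CPM in WPF, 1.48-fold between the means and again without overlap.

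Pzp, the gene of the tetrameric alpha-macroglobulin of mouse plasma, had the highest level of the role with 234 ± 72.5 FPKM (SD over 6 libraries). It was counted at 1719, 1019 and 1753 CPM in KPF and 1434, 1057 and 1946 CPM in WPF, and the groups covered the same range. The difference on the log2 scale was 0.017 (standard error 0.35, adjusted p = 0.986 in edgeR's test). A2m, a further macroglobulin gene, had 1 to 10 reads per library and was not tested.

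**Figure D3:**
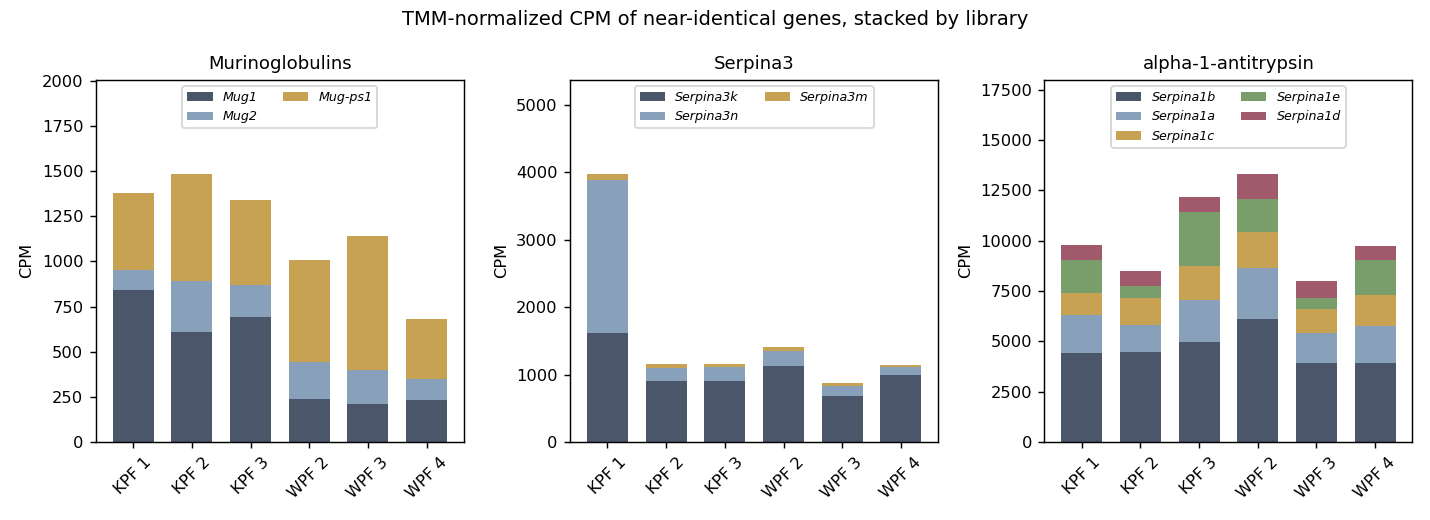
TMM-normalized CPM of near-identical genes stacked by library, for the murinoglobulins with the pseudogene Mug-ps1, for 3 Serpina3 genes and for the 5 alpha-1-antitrypsin genes; each bar is 1 library, the colours are genes, and each panel has its own axis from 0. The Mug1 part of the bar is taller in all KPF libraries, and the Serpina3n part is large in KPF replicate 1 alone.

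Among the Serpina3 genes, the mouse relatives of human alpha-1-antichymotrypsin, Serpina3n was high in a single library. Serpina3n (ENSMUSG00000021091, chromosome 12 from 104372988 to 104380588 on the plus strand) was counted at 2275 CPM in KPF replicate 1, at 195 and 221 CPM in KPF replicates 2 and 3, with 219.7, 142 and 111 CPM in WPF. KPF replicates 2 and 3 lay at the level of WPF replicate 2, so that the groups overlapped. The log2 fold change of 2.51 (standard error 0.96, p = 0.0320, adjusted p = 0.434 in edgeR's test, exact permutation p = 0.2) rested on KPF replicate 1: without it, the value was 0.40 and the call was lost. The call was also lost, at log2 fold changes of 2.83, 2.44 and 2.31, without WPF replicate 2, 3 or 4, and DESeq2 gave the gene no p.

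KPF replicate 1 was also the highest library for Saa1, Saa2 and Lcn2, the genes of 2 serum amyloid A proteins and of lipocalin 2, which rise in the acute phase reaction. Saa1 was counted at 17, 7.96 and 4.23 CPM in KPF and 1.38, 2.39 and 2.17 CPM in WPF. Lcn2 stood at 49.5, 20.1 and 10.6 CPM in KPF and 8.47, 9.77 and 11.9 CPM in WPF. Of 15 acute phase genes, 3 (Saa1, Saa2 and Lcn2) were called higher in KPF and none lower, and the other 12 were not called. Among all genes tested, 5.83% were called higher and 3.98% lower. Saa3 (3.91 CPM) and Orm1 (704 CPM) were not raised in KPF replicate 1, and the sum of the 15 was 17597 CPM there and 16600 CPM in WPF replicate 2, with 9667 to 14847 CPM in the other 4 libraries. The part of an acute phase reaction in the Serpina3n value was not tested.

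The neighbours of Serpina3n moved in the same direction in KPF replicate 1, by less. Serpina3k, which encodes a kallikrein-binding serpin, was counted at 1617, 899.6 and 898 CPM in KPF and 1131, 687 and 995.4 CPM in WPF. Serpina3m stood at 87.3, 56.6 and 38.8 CPM in KPF and 60.3, 43.2 and 40.2 CPM in WPF. In both genes KPF replicate 1 was the highest library, the other KPF libraries lay within the WPF range or next to it, and the log2 fold changes of 0.28 and 0.35 did not pass (adjusted p = 0.783 and 0.719 in edgeR's test). Serpina3m and Serpina3k start at the same base in the table, so reads in their shared span may be assigned to either gene or to neither. Serpina3g was highest in WPF replicate 4 (10.7 CPM, against 3.79 to 6.01 CPM in the other libraries) and was not called.

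The alpha-1-antitrypsin genes did not differ between the groups beyond the spread between dams. Serpina1b was counted at 4400, 4454 and 4981 CPM in KPF and 6112, 3928 and 3921 CPM in WPF. Serpina1c stood at 1117, 1354 and 1667 CPM in KPF and 1782, 1212 and 1510 CPM in WPF, and Serpina1a at 1913, 1344 and 2078 CPM in KPF and 2524, 1475 and 1850 CPM in WPF. In each of these 3 genes WPF replicate 2, the library with the highest sum of hepatocyte markers, was highest, and the groups overlapped.

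None of the 6 alpha-1-antitrypsin paralogs tested was called, with log2 fold changes from -0.31 (Serpina1d) to 1.18 (Serpina1f) and adjusted p from 0.723 to 0.987 in edgeR's test. Summed over Serpina1a to Serpina1e, the level was 9799, 8502 and 12180 CPM in KPF and 13336, 7990 and 9763 CPM in WPF, 0.980-fold between the means. That sum does not depend on how counted reads were divided between these genes. Any shared reads left uncounted would be missing from it. Serpina1b held between 40.2% and 52.4% of that sum in all 6 libraries. In the table the span of Serpina1b encloses Serpina1d on the same strand, together with Gm8893, a gene model with 19557 reads over the 6 libraries, and this further limits single values of Serpina1b and Serpina1d.

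Of the hormone-binding serpins, Serpina7 was called lower in KPF and Serpina6 was not called. Serpina7 encodes thyroxine-binding globulin, a plasma carrier of thyroid hormone. Serpina7 (ENSMUSG00000031271, chromosome X from 137980006 to 137985985 on the minus strand) was counted at 9.53, 2.65 and 11.8 CPM in KPF, against 21.2, 44.6 and 21.55 CPM in WPF. All KPF values lay below all WPF values. The KPF mean was 7.999 ± 4.77 CPM and the WPF mean 29.1 ± 13.4 CPM (SD, n = 3 each), 3.64-fold lower in KPF, for a log2 fold change of -1.87 (standard error 0.55, p = 0.00988, adjusted p = 0.430 in edgeR's test, exact permutation p = 0.1). Leaving out each library gave values between -2.26 and -1.42, all still called, and the value without WPF replicate 4 was -2.05. The level was low throughout, with 30 to 635 reads per library.

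Serpina6 varied between dams more than between groups. Corticosteroid-binding globulin carries glucocorticoids and progesterone in plasma. Serpina6 (ENSMUSG00000060807) stood at 7439, 2246 and 14390 CPM in KPF and 3429, 4487 and 9053 CPM in WPF, with KPF replicate 3 the highest and KPF replicate 2 the lowest library. The highest library was 6.41-fold above the lowest, and the WPF range lay inside the KPF range. The log2 fold change of 0.50 (standard error 0.67) did not pass (adjusted p = 0.799 in edgeR's test). It was 0.94 without KPF replicate 2, -0.22 without KPF replicate 3 and 1.01 without WPF replicate 4, and was called in none of these fits.

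**Figure D4:**
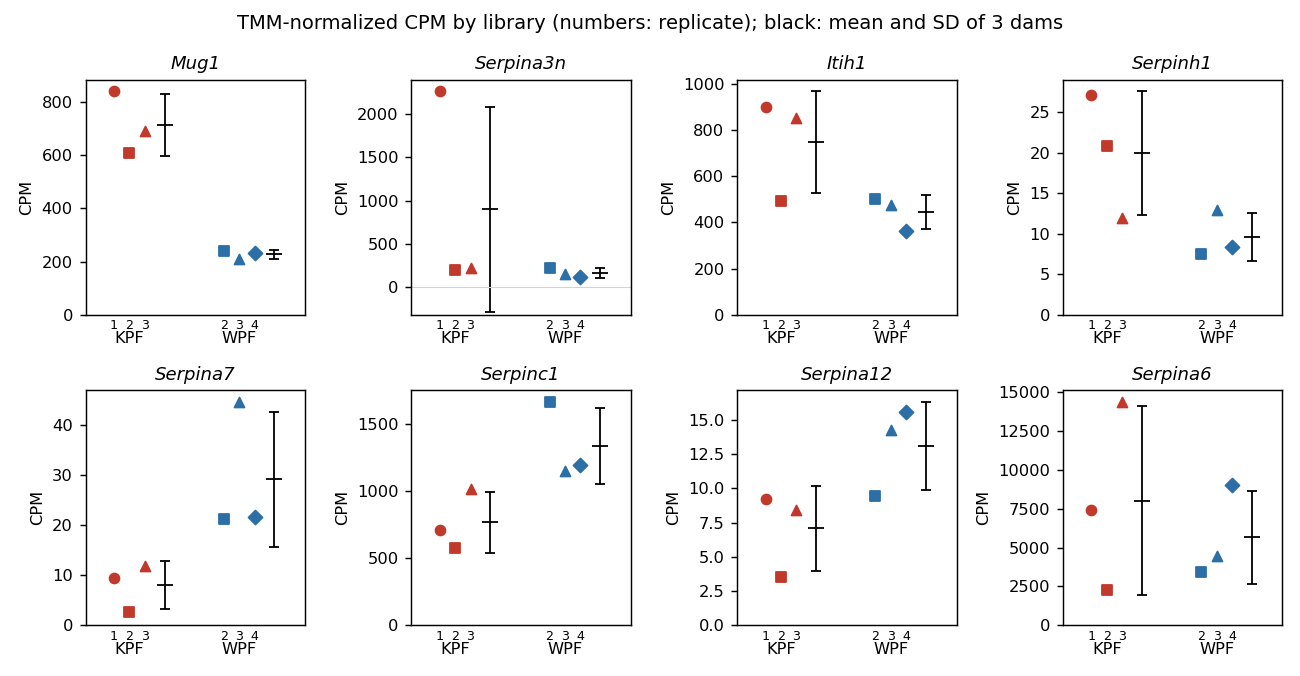
TMM-normalized CPM in each library for the 6 called members and for Serpina12 and Serpina6, with KPF in red and WPF in blue; small numbers give the replicate, and black bars the mean and SD of 3 dams. Mug1, Serpina7, Serpinc1 and Serpina12 separate the groups, Serpina3n rests on KPF replicate 1, and the Serpina6 points of both groups overlap over their whole range.

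Other members varied in the same libraries as Serpina6. They were chosen after their values were seen and are given as a description. Serpina1e was counted at 1626, 596 and 2691 CPM in KPF and 1647, 553 and 1777 CPM in WPF. Serpina1f stood at 8.48, 0.0885 and 8.84 CPM in KPF and 0.691, 1.83 and 5.04 CPM in WPF, and Serpina16 at 7.53, 0.177 and 8.36 CPM in KPF and 1.81, 2.74 and 6.21 CPM in WPF. In Serpina6, Serpina16 and Serpina1f, KPF replicate 3 was the highest and KPF replicate 2 the lowest library, and within each group the order of the 3 libraries was the same in all 3 genes. For Serpina1f the lowest value is a single read and for Serpina16 it is 2 reads, so that ratios to them carry wide counting error. None of these was called (adjusted p = 0.868 for Serpina1e, 0.725 for Serpina1f and 0.846 for Serpina16 in edgeR's test).

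These genes lie in a cluster of clade A serpins, the secreted antitrypsin-like clade, in which 19 members follow one another on chromosome 12. Serpina6, Serpina16 and Serpina1f are direct neighbours among the members there, whereas Serpina1b, Serpina1d, Serpina1a and Serpina1c lie between Serpina1f and Serpina1e and did not share the pattern: on the log2 scale their KPF replicate 2 values differed from the gene mean over 6 libraries by -0.44 to -0.039. In KPF replicate 2 the difference from the gene mean was -1.34 for Serpina6, -2.44 for Serpina16, -2.36 for Serpina1f and -1.09 for Serpina1e. Serpina1e shared the pattern only in part, since its lowest library was WPF replicate 3 (-1.2). Serpina12, further along the cluster, was also lowest in KPF replicate 2 (-1.26), but it was highest in WPF replicate 4. Of the 15 tested members in the cluster, KPF replicate 2 was the lowest library for 6 and the highest for none. Outside the cluster it was also the lowest library for Pzp, Itih2, Itih3, Itih4, Serpina7, Serpinc1 and Serpinf2. It was the highest there for Mug2 and Serping1. Low values in this library were therefore not particular to the cluster. KPF replicate 2 is the library with the striated muscle genes, whose part in these low values was not tested. Over all members tested, 12 of 30 had a ratio of at least 2 between the highest and the lowest KPF library, 40% against 26.8% of all genes tested, and 7 of 30 had it in WPF, 23.3% against 15.6%, which are counts without a test.

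**Figure D5:**
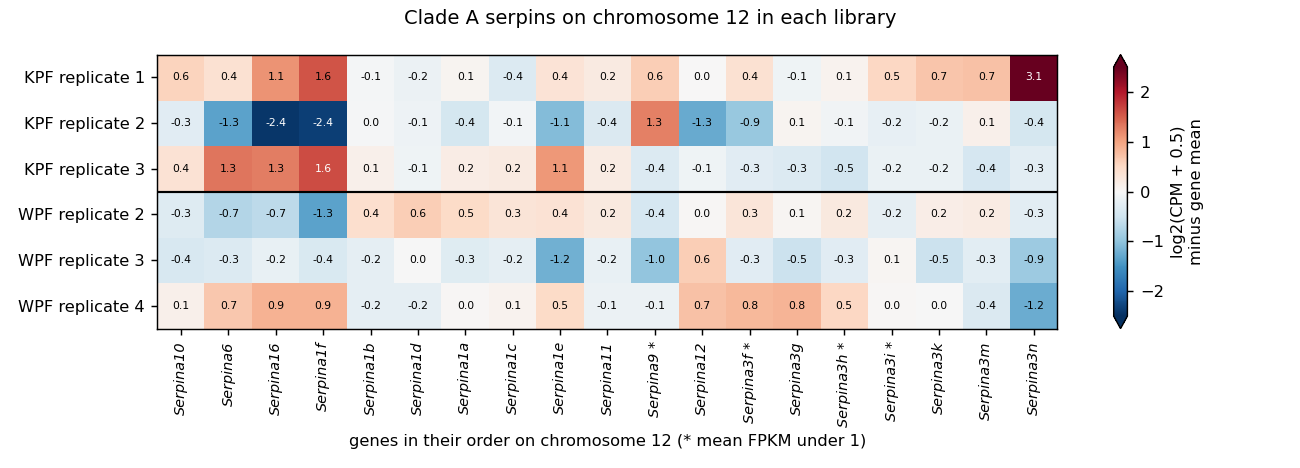
Difference of each library from the gene mean on the log2(CPM + 0.5) scale for the 19 clade A members in their order on chromosome 12; rows are libraries, the black line divides KPF from WPF, red is above and blue below the mean, and colours are capped at 2.5. Serpina6, Serpina16, Serpina1f and Serpina1e are low in KPF replicate 2 and high in KPF replicate 3, while Serpina3n stands out in KPF replicate 1.

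Of the serpins of clotting, clot lysis and complement, Serpinc1 was called lower in KPF. Serpinc1 encodes antithrombin, which inhibits thrombin and factor Xa. Serpinc1 (ENSMUSG00000026715, chromosome 1 from 160806155 to 160833433 on the plus strand) was counted at 712, 576 and 1019 CPM in KPF and 1669, 1152 and 1198 CPM in WPF. KPF replicate 3 came nearest to WPF, and the groups did not overlap. The KPF mean was 769 ± 227 CPM and the WPF mean 1339 ± 286 CPM (SD, n = 3 each), 1.74-fold lower in KPF, for a log2 fold change of -0.80 (standard error 0.32, p = 0.0373, adjusted p = 0.447 in edgeR's test, exact permutation p = 0.1). The direction held in all 15 alternative fits, but the call was lost without KPF replicate 1 or 2 or WPF replicate 2 or 3 (log2 fold changes -0.75, -0.64, -0.61 and -0.90). It held without WPF replicate 4 (-0.88). Zbtb37, which overlaps Serpinc1 on the opposite strand, had 7969 reads against 80745 for Serpinc1, and the strand setting of the counting was not given in the sources used here.

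The other clotting and complement serpins were not called. Serpinf2, the gene of alpha-2-antiplasmin, the inhibitor of plasmin, was counted at 462, 357 and 535 CPM in KPF and 501, 384 and 486 CPM in WPF. Serpind1, the gene of heparin cofactor II, a thrombin inhibitor, stood at 170.5, 219 and 342 CPM in KPF and 266, 232 and 256 CPM in WPF. Serping1, the gene of C1 inhibitor, which restrains the complement and contact systems, stood at 163, 240.0 and 202 CPM in KPF and 196, 151 and 237 CPM in WPF. In all 3 the groups overlapped, and the log2 fold changes were -0.017, -0.044 and 0.050 (standard errors 0.27, 0.31 and 0.28, adjusted p = 0.983, 0.966 and 0.958 in edgeR's test).

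Serpina10, the gene of the protein Z-dependent inhibitor of factor Xa, had a log2 fold change of 0.44 and was not called (adjusted p = 0.618 in edgeR's test). Serpine2, the gene of protease nexin 1, had 9 to 72 reads per library and was not tested.

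Among the serpins that do not inhibit proteases or whose target is less clear, Serpinh1 was called higher in KPF. Serpinh1 encodes HSP47, a collagen chaperone of the endoplasmic reticulum. Serpinh1 (ENSMUSG00000070436, chromosome 7 from 98994583 to 99002446 on the minus strand) was counted at 27.15, 20.9 and 11.9 CPM in KPF and 7.43, 12.9 and 8.37 CPM in WPF. KPF replicate 3 lay below WPF replicate 3, so that the groups overlapped. The KPF mean was 19.98 ± 7.66 CPM and the WPF mean 9.58 ± 2.94 CPM (SD, n = 3 each), 2.09-fold, for a log2 fold change of 1.06 (standard error 0.36, p = 0.0187, adjusted p = 0.430 in edgeR's test, exact permutation p = 0.2). The call was lost without KPF replicate 1, WPF replicate 2 or WPF replicate 4 (log2 fold changes 0.77, 0.91 and 0.96).

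Some markers of other cell types were also higher in KPF, and others were not. Among 6 sinusoidal endothelial markers, 1 (Pecam1) was called higher and none lower. No Kupffer, neutrophil, cholangiocyte, pancreas, erythroid or T and NK cell marker tested was called. The 6 Kupffer markers summed to between 117 and 181 CPM in KPF and between 132 and 236 CPM in WPF. Of 8 markers of stellate cells and fibroblasts, the collagen-making cells of the liver, which were all above 0 in every library, 4 (Des, Reln, Col1a1 and Col3a1) were called higher in KPF and none lower. Among all genes tested, 5.83% were called higher and 3.98% lower. Lrat, which marks quiescent stellate cells, had a log2 fold change of -0.35 and was not called. Des, which muscle also expresses, reached 486 CPM in KPF replicate 2, the library with the striated muscle genes, against 7.32 to 53.8 CPM in the other 5 libraries. Col1a1 was counted at 30.8, 24.4 and 10.2 CPM in KPF and 4.67, 6.67 and 2.69 CPM in WPF, with the KPF libraries in the same order as for Serpinh1. The 8 markers summed to 657, 868 and 307 CPM in KPF and between 268 and 294 CPM in WPF. The 868 CPM of KPF replicate 2 includes the 486 CPM of Des. The 4 mesothelium markers summed to between 4.13 and 13.0 CPM in KPF and between 0.937 and 3.51 CPM in WPF. The 5 adipose markers summed to 40.1, 39.5 and 8.65 CPM in KPF and 12.5, 8.85 and 6.44 CPM in WPF, nearly all of it Fabp4, which was called higher, while Lep was at 0 in every library. The part of these cell types in the Serpinh1 value was not tested, and without KPF replicate 2 its log2 fold change was 1.02 and still called.

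Serpina12, the gene of vaspin, was not called although its groups did not overlap. It was counted at 9.24, 3.54 and 8.45 CPM in KPF and 9.42, 14.3 and 15.6 CPM in WPF, and KPF replicate 1 and WPF replicate 2 lay next to each other. The log2 fold change was -0.89 (standard error 0.39, p = 0.0550, adjusted p = 0.464 in edgeR's test, exact permutation p = 0.1), and 9 of 14 alternative fits called it lower. Serpinf1, the gene of pigment epithelium-derived factor, stood at 91.9, 164 and 148 CPM in KPF and 190.4, 154 and 174 CPM in WPF, and was lowest in KPF replicate 1. Serpina11 stood at 96.7, 64.0 and 95.4 CPM in KPF and 97.2, 71.9 and 74.5 CPM in WPF. Neither was called, with log2 fold changes of -0.36 and 0.073 (adjusted p = 0.662 and 0.930 in edgeR's test).

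The inter-alpha-trypsin inhibitor is built from heavy chains, encoded by the Itih genes, that are joined to bikunin, a light chain cut from the Ambp product. Itih1 was called higher in KPF. Itih1 (ENSMUSG00000006529, chromosome 14 from 30651137 to 30665246 on the minus strand) was counted at 901, 495 and 852.5 CPM in KPF and 503, 476 and 362 CPM in WPF. KPF replicate 2 lay inside the WPF range and the other KPF libraries above it. The KPF mean was 749.7 ± 222 CPM and the WPF mean 447 ± 74.6 CPM (SD, n = 3 each), 1.68-fold, for a log2 fold change of 0.75 (standard error 0.32, p = 0.0468, adjusted p = 0.456 in edgeR's test, exact permutation p = 0.2). Of the fits without 1 library, the call held without KPF replicate 2 alone, and the other 5 gave log2 fold changes between 0.59 and 0.84 at unadjusted p values above 0.05. Over all alternatives, the call was lost in 11 of 15, among them the fits without the FPKM minimum (0.69), with filterByExpr (0.72) and with library totals (0.62).

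None of the other chains was called. Ambp, whose product also yields alpha-1-microglobulin, was counted at 748, 1024 and 978 CPM in KPF and 1602, 1067 and 1148 CPM in WPF, so that the groups did not overlap, with KPF replicate 2 just below WPF replicate 3. Itih4, an acute phase protein, stood at 3196, 1172 and 2628 CPM in KPF and 2146, 1691 and 2106 CPM in WPF. Itih3 stood at 1769, 987.5 and 1837 CPM in KPF and 2436, 1531 and 1122 CPM in WPF. In both of these genes the groups overlapped and KPF replicate 2 was the lowest library.

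The log2 fold changes were -0.47 for Ambp (standard error 0.29, adjusted p = 0.574 in edgeR's test), 0.24 for Itih4, -0.15 for Itih3 and -0.11 for Itih2, the last 3 with adjusted p between 0.839 and 0.912 in edgeR's test. Itih1, Itih3 and Itih4 are neighbours on chromosome 14, and only Itih1 among them was called. Whether Itih1 differed from the other chains was not tested.

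The intracellular clade B serpins, which protect cells from their own or from phagocytic proteases, were low in all livers. Of 27 clade B genes, 16 had no read and 7 were members, with mean levels from 0.0683 FPKM (Serpinb10) to 0.967 FPKM (Serpinb6a). Serpinb8, chosen after its values were seen, was counted at 1.43, 2.65 and 13.8 CPM in KPF and 0.778, 1.55 and 7.26 CPM in WPF, highest in KPF replicate 3 and WPF replicate 4. Serpinb1c was counted in KPF replicate 2 alone, with 16 reads. Serpinb6a overlaps Nqo2 and Ripk1 on the opposite strand, which had 4000 and 1943 reads against its own 385, so that its value is uncertain.

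The proteases, receptors and other inhibitors around these families were taken from a list of 44 genes, of which 30 were tested, 2 were called higher and 3 lower. Over all genes tested, 5.83% were called higher and 3.98% lower. Factor VII, a clotting protease encoded by F7, was counted at 129, 167 and 303 CPM in KPF and 321, 339 and 717 CPM in WPF, below WPF in every KPF library (log2 fold change -1.20, adjusted p = 0.430 in edgeR's test). F11, the gene of factor XI, stood at 250, 153 and 142 CPM in KPF and 77.4, 82.0 and 139 CPM in WPF, above WPF in every KPF library (log2 fold change 0.87, adjusted p = 0.445 in edgeR's test). Ctsl, the gene of the lysosomal protease cathepsin L, was lower at 76.3, 55.7 and 56.4 CPM in KPF and 149, 118 and 73.5 CPM in WPF, where KPF replicate 1 overlapped WPF replicate 4 (log2 fold change -0.85). Timp2, which encodes a metalloprotease inhibitor, was higher at 13.2, 10.5 and 4.13 CPM in KPF and 4.15, 4.22 and 5.04 CPM in WPF, with KPF replicate 3 at the bottom of the range (log2 fold change 1.06). Wfdc2, named after its values were seen, was the third gene called lower (log2 fold change -1.12). Of the target proteases, 1 was called higher, 2 lower and 12 not, of the other inhibitors 1, 1 and 10, and of 3 tested receptors and partners, with Lrp1, the receptor that clears serpin and macroglobulin complexes, none.

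Promoters were searched for motifs in the 250 bases before the RefSeq start (GRCm38.p6), on both strands, in the 35 members that have an entry, with 1 entry taken per gene. The E-box CACGTG, the core of the element that ChREBP binds, was in none of the 35 and in 6.05% of all 27025 promoters. A pair of exact CACGTG copies 5 bases apart, a strict form of that element, was in no promoter of either set. The search for this pair therefore could not tell members from other genes. TTCNNNGAA, the core bound by STAT factors, was in 7 of the 35 members (Itih4, Serpina11, Serpina1f, Serpina3f, Serpina3g, Serpina3i and Serpinb6a). It was in 1940 of all 27025 promoters (7.18%). GTTAATNA, part of the site of the hepatocyte factor HNF1, was in 1 of the 35 members (Pzp) and in 2.39% of all promoters. The whole palindromic HNF1 site, which contains it, was in no member and 2 of all promoters. The 6 called members were not among the matches. A match or its lack describes these letters in this window only.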

How the data were processed

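Poly(A) RNA of whole liver was sequenced in 3 KPF and 3 WPF dams. For each gene the authors deposited read counts (not normalized) and FPKM. The submitters' processing notes name cutadapt 1.9.1, HISAT2 2.2.1, HTSeq 0.6.1, DESeq2 and the build GRCm39. The deposited FPKM equal the deposited counts divided by the gene length and the library total to within 0.005. The strand setting and the treatment of multi-mapped reads are not given in the sources used here.

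Of 56691 gene IDs, 52073 matched a symbol. Genes with a mean of at least 1 FPKM (10866) were fitted with edgeR 4.0.16 (R 4.3.3; TMM factors 0.891 to 1.178; quasi-likelihood test; Benjamini-Hochberg adjustment over all genes tested), after a trial on simulated data. CPM values are TMM-normalized. Permutation tests used log2(CPM + 0.5). The libraries held 10694496 to 14496630 counted reads, which limits genes with few reads. Table coordinates (GRCm39) were not combined with the GRCm38 reference used for sequences.

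The values of 1 member are not reported here. Members and gene lists were chosen with earlier results of these data known. The striated muscle list was added after values were seen. Each library's values are given for called members, members at least 1.5-fold different without overlap, the 3 most abundant members per role and preset genes; other genes named with values were chosen after seeing them. Alternatives were other filters and scalings, DESeq2 1.42.0, limma 3.58.1 on log2(FPKM + 1) or log2(FPKM + 0.1), each library left out, the replicate number as a block, and sums over paralogs, of which the sum with Mug-ps1 was added after seeing the data.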

Additional observations from a re-analysis of the deposited data

How the results depend on the processing

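The number of members called higher in KPF was 1 in place of 4 with limma on log2(FPKM + 1) or log2(FPKM + 0.1) and 1 with the replicate block, and between 1 and 5 with each library left out (1 without KPF replicate 1, WPF replicate 2 or WPF replicate 4). The number called lower was 4 in place of 2 with limma at either pseudocount and between 1 and 2 with each library left out (1 without KPF replicate 2 or WPF replicate 3). Members with an adjusted p under 0.05 were 2 in place of 0 with DESeq2. The cause of these differences was not tested. Over all genes tested, 634 were called higher and 433 lower, against 1119 and 699 without the FPKM minimum (18855 genes tested), 255 and 205 at a mean of at least 5 FPKM (4757 genes tested), 371 and 729 with library totals, 238 and 552 with limma on log2(FPKM + 1), 257 and 681 on log2(FPKM + 0.1), and 324 to 910 and 246 to 709 with each library left out. Genes with an adjusted p under 0.05 were 156 with DESeq2, 1 with limma on log2(FPKM + 0.1) and 5 without WPF replicate 4, in place of 0. The log2 ratio of the group means for Mug1 was 1.19 when summed with Mug2 and 0.57 with Mug-ps1 as well.

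Replicate numbers 2 and 3 occur in both groups but stand for different dams. Libraries with the same number did not deviate together (correlations of 0.0708 and -0.0502 across genes), so the block is given here only. KPF replicate 1 and WPF replicate 4 have no library of the same number in the other group. With the block, the group difference therefore rested on replicates 2 and 3 of each group. The block left Mug1 at 1.54 and Serpina7 at -2.40, both called. Serpina3n (0.23), Itih1 (0.41), Serpinh1 (0.68) and Serpinc1 (-0.86) were no longer called.

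Changes of sign concerned members that were not called, with log2 fold changes of up to 0.56 (Serpina16) and 0.50 (Serpina6) in size. With the replicate block the log2 fold change was 0.11 for Serpina3g, -0.12 for Serpina3m, 0.031 for Serpina1c, -0.12 for Itih4, 0.14 for Serpind1, -0.096 for Serpina11 and -0.027 for Serpina16. With limma on log2(FPKM + 1) and log2(FPKM + 0.1) it was -0.028 and -0.031 for Mug2, -0.11 and -0.11 for Pzp, -0.0027 and -0.0029 for Itih4, -0.068 and -0.068 for Serping1, and -0.062 and -0.064 for Serpina11, and with the smaller pseudocount -0.37 for Serpina16. With library totals in place of TMM, which moved the median of all genes to -0.12, it was -0.14 for Pzp, -0.091 for Serping1 and -0.046 for Serpina11. Without the FPKM minimum it was -0.039 for Pzp and -0.0065 for Serping1, and with filterByExpr -0.0097 for Pzp.

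Over the fits without 1 library, the log2 fold change ranged from -0.68 to 0.094 for Serpina3g, -0.061 to 0.44 for Serpina3k, -0.0048 to 0.59 for Serpina3m, -0.30 to 0.097 for Serpina1a, -0.13 to 0.23 for Serpina1b, -0.28 to 0.019 for Serpina1c and -0.26 to 0.70 for Serpina1e. It ranged from -0.25 to 0.44 for Mug2, -0.18 to 0.26 for Pzp, -0.22 to 1.01 for Serpina6, -0.27 to 0.10 for Itih2, -0.38 to 0.21 for Itih3, -0.060 to 0.55 for Itih4, -0.37 to 0.16 for Serpind1, -0.16 to 0.12 for Serpinf2, -0.10 to 0.21 for Serping1 and -0.026 to 0.24 for Serpina11. Genes with few reads, such as Serpina1f and Serpina16, are limited by depth.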
